A study of Homo sapiens with 8 samples.

Results

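The transcripts examined here encode 9 enzymes of serine synthesis and of the folate cycle that carries single-carbon units: PHGDH, PSAT1, PSPH, SHMT1, SHMT2, MTHFD1, MTHFD2, MTHFD1L and ALDH1L2. They were chosen by symbol from 18164 genes in the authors' deposited table, and all 9 were found and passed the filter on low values. RNA was sequenced from 8 orthotopic tumors grown from HCC1937, an established human triple-negative breast cancer cell line, in NCG mice, an immunodeficient strain without functional Prkdc and Il2rg that lacks T, B and NK cells and keeps myeloid and stromal cells. The treated group was 4 tumors from mice given 500 mg/kg/day of NMN (nicotinamide mononucleotide, from which cells make NAD+), called NMN 1 to NMN 4. The other group was 4 tumors from mice given vehicle, called Vehicle 1 to Vehicle 4. All 8 tumors came from 1000000 cells injected into the inguinal mammary fat pad, and treatment was assigned once tumors measured 100 to 150 mm3. Whether every tumor is from its own mouse is left unstated, so a p-value reflects only how these 8 samples scatter, which may be technical, and all tumors derive from a single cell line.

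Serine is built from the glycolytic intermediate 3-phosphoglycerate in a short branch: PHGDH oxidises it with NAD+ as the electron acceptor, PSAT1 transfers an amino group from glutamate, and PSPH removes the phosphate. The serine hydroxymethyltransferases then split serine into glycine and a carbon unit carried by tetrahydrofolate, SHMT1 in the cytosol and nucleus and SHMT2 in mitochondria. In mitochondria MTHFD2 oxidises that unit with NAD+ or NADP+, MTHFD1L releases it as formate and ALDH1L2 can burn it to carbon dioxide, and in the cytosol the trifunctional MTHFD1 puts formate back on folate for purine and thymidylate synthesis. The series title names NAD+ supplementation, and the question here is whether the transcripts of these enzymes, some of which use NAD+, differed with NMN.

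None of the 9 transcripts passed the test between NMN and Vehicle tumors. PHGDH had a mean of 356 ± 37.1 TPM with NMN and 317 ± 63.9 TPM with vehicle, and PSAT1 a mean of 187 ± 22.0 TPM with NMN and 208 ± 38.2 TPM with vehicle (SD, n = 4 each). TPM, the relative number of transcripts of a gene, is a level corrected for transcript length and scaled to the same total in every library. The tested quantity was log2(TPM + 1), which understates changes of low genes, and the test was limma's moderated linear model over all 13358 genes with at least 1 TPM in at least 4 tumors. With Benjamini-Hochberg adjustment at 0.05 it called 0 of the 9 members and 0% of all tested genes. At an unadjusted p under 0.05 stood 0 of the 9 members, against 6.94% of all tested genes. The groups overlapped in all 9 members, whereas in 3.05% of tested genes they did not. The mean was higher in NMN tumors for 6 members and lower for 3, and their median difference on the log2 scale was 0.03; over all tested genes 6816 were higher and 6542 lower, around a median of 0.00. Without NMN 4, and likewise without Vehicle 2, the higher mean lay in NMN tumors for 3 of the 9 members.

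**Figure D1:**
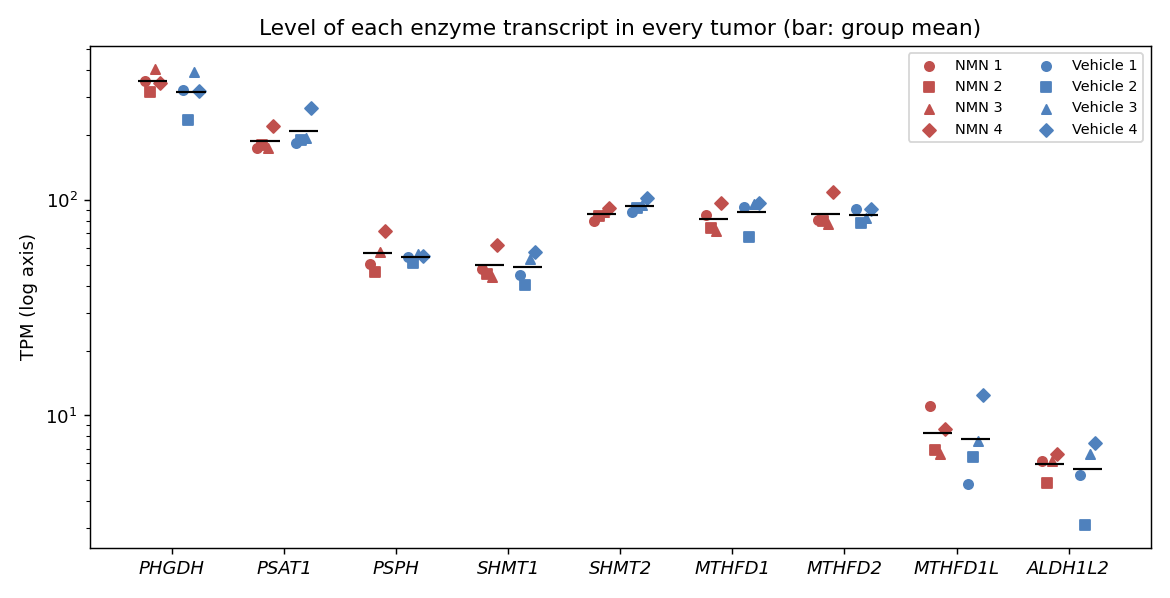
TPM (log axis) of each of the 9 enzyme transcripts in every tumor, NMN tumors in red left of Vehicle tumors in blue, with a marker shape for each replicate number and a bar at the group mean. Levels run from 3.11 TPM for ALDH1L2 to 405 TPM for PHGDH, and within every gene the red and blue points overlap.

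The 9 transcripts lay at very different levels. PHGDH was the most abundant, with a mean over the 8 tumors of 337 TPM, above 97.0% of tested genes, followed by PSAT1 at 197 TPM, above 94.7%. PHGDH lay above PSAT1 in 8 of 8 tumors, 1.70-fold as a geometric mean, and PSAT1 lay 2.18-fold above SHMT2 in 8 of 8. SHMT2, MTHFD2 and MTHFD1, at 89.9, 85.9 and 84.8 TPM, could not be put in an order. SHMT2 exceeded MTHFD2 in 5 of 8 tumors and MTHFD2 exceeded MTHFD1 in 4 of 8, and both log2 differences were smaller than their SD over the tumors. MTHFD1 stood 1.53-fold above PSPH in 8 of 8 tumors. PSPH, at 55.2 TPM, exceeded SHMT1, at 49.3 TPM, in 7 of 8, by a log2 difference of 0.17 ± 0.16 (SD over 8 tumors). A 6.31-fold step separated SHMT1 from the pair of scarce transcripts, MTHFD1L at 8.06 TPM and ALDH1L2 at 5.79 TPM, which lay above only 27.8% and 21.5% of tested genes. MTHFD1L exceeded ALDH1L2 in 7 of 8 tumors, the exception being Vehicle 1.

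In the serine branch, PHGDH (chromosome 1, 119648411 to 119744226, plus strand, GRCh38, as for all positions here) was at 356, 315, 405 and 349 TPM in NMN 1 to 4, against 323, 235, 391 and 319.9 TPM in Vehicle 1 to 4. The tumor with the lowest value was Vehicle 2, and the other 7 lay between 315 and 405 TPM. PHGDH had a log2 fold change of 0.18 ± 0.14 (SE), 95% interval -0.13 to 0.50 (adjusted p = 0.907, limma; exact two-sided permutation p = 0.371). Without Vehicle 2 the estimate was 0.05, and without Vehicle 3 it was 0.29.

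PSAT1 (chromosome 9, 78297143 to 78330093, plus strand), the aminotransferase, was at 174, 179, 174 and 219 TPM in NMN 1 to 4, against 183, 190.2, 194 and 265 TPM in Vehicle 1 to 4. In each group the fourth tumor stood above the other 3, and NMN 1, NMN 2 and NMN 3 lay below every Vehicle tumor, but not after median-of-ratios scaling, where NMN 2 (194) exceeded Vehicle 1 (177) and Vehicle 3 (182). PSAT1 had a log2 fold change of -0.15 ± 0.13, 95% interval -0.43 to 0.14 (adjusted p = 0.923, limma). Without Vehicle 4 it was -0.03, and without NMN 4 it was -0.23, in neither case past the threshold.

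PSPH (chromosome 7, 56011051 to 56051604, minus strand), the phosphatase that completes serine, was at 50.1, 46.4, 57.4 and 71.6 TPM in NMN 1 to 4, against 54.5, 50.9, 55.8 and 54.9 TPM in Vehicle 1 to 4. The 4 Vehicle tumors were tightly grouped (SD 2.15 TPM), and the NMN tumors fell on both sides of them (SD 11.1 TPM). PSPH had a log2 fold change of 0.04 ± 0.13 (adjusted p = 0.985, limma), and it was -0.08 without NMN 4. Summed, the 3 transcripts of the serine branch made up 599 ± 47.8 TPM with NMN and 579 ± 78.5 TPM with vehicle, between 0.0476% and 0.0641% of all TPM in a tumor.

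GENCODE 29 lists pseudogenes named for 5 members: 7 for MTHFD2, 4 for PSAT1 and 1 each for PSPH, SHMT1 and MTHFD1. None of these pseudogenes is among the genes listed, so reads from such copies may be counted with the parent gene, and the values of these 5 members carry that uncertainty.

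Sequence just before the start site is shown for PHGDH and PSAT1, the most abundant members, for MTHFD2, and for MTHFD1L, the most variable, taken from RefSeq promoters on GRCh38.p14, plus strand. Start sites here are those of the RefSeq entries, and the PHGDH, MTHFD2 and MTHFD1L stretches overlap exons that GENCODE 29 annotates, those of PHGDH and MTHFD1L lying inside the gene spans given here. MTHFD1L has several entries with different starts, and the stretch shown is from an entry that holds the marked letters. Capitals mark CCAAT, the box bound by the factor NF-Y, and in MTHFD1L the letters TGATGNAA, a form of the element bound by ATF4, the transcription factor of the amino acid response.

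PSAT1, chr9:78296975-78297124: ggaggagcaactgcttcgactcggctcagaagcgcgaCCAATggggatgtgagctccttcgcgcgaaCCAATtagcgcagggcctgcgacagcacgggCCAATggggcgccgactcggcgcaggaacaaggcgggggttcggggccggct

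MTHFD2, chr2:74198527-74198556: gcatgcggcagggaCCAATgggtggcggag

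PHGDH, chr1:119711850-119711879: tgagtatttccgtCCAATcaaaaggagact

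MTHFD1L, chr6:150866346-150866375: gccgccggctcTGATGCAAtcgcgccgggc

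RefSeq promoters were found for 6 of the 9 members, and PSPH, SHMT2 and ALDH1L2 had no match by symbol. In the 250 bases before a start, searched on both strands, all 6 held CCAAT, as did 32.01% of the 35116 promoters searched. PSAT1 held it 3 times on the plus strand within 113 bases of the start. TGATGNAA was found in 1 of the 6, MTHFD1L, and in 3.14% of all promoters. ACGTG, the core of the element bound by the hypoxia-inducible factors, was found in MTHFD1, MTHFD1L and MTHFD2 and in 18.51% of all promoters. In MTHFD1 and MTHFD1L that match lies inside the palindrome CACGTG, which 6.34% of promoters held. A member was counted if any of its entries held the letters, whereas the percentages are of single entries. With several entries, MTHFD1L had more chances of a match, so the counts and the percentages are not on the same footing. These are matches of letters, chosen with the values known.

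The serine hydroxymethyltransferases differed in level from each other, and neither passed the test between treatments. SHMT2 (chromosome 12, 57229327 to 57234935, plus strand), the mitochondrial form, was at 79.4, 84.4, 87.5 and 91.5 TPM in NMN 1 to 4, against 87.8, 91.4, 94.6 and 102 TPM in Vehicle 1 to 4. NMN 1, NMN 2 and NMN 3 lay below every Vehicle tumor, and NMN 4 lay within their range. After scaling this split was gone: NMN 2 (91.5) exceeded Vehicle 1 (84.9) and Vehicle 3 (88.6), NMN 3 (87.3) exceeded Vehicle 1, and NMN 4 (83.0) lay below every Vehicle tumor. Its log2 fold change of -0.13 ± 0.09, 95% interval -0.33 to 0.07, was the closest of the 9 to the threshold (adjusted p = 0.880, limma; exact permutation p = 0.0857, where 4 tumors against 4 cannot go below 0.0286). In deposited TPM SHMT2 also varied least of the 9, 1.29-fold from the lowest to the highest tumor, a spread above that of only 6.75% of tested genes. After scaling it ranged 1.33-fold, more than PSPH (1.31-fold) and MTHFD2 (1.28-fold).

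SHMT1 (chromosome 17, 18327860 to 18363563, minus strand), the cytosolic form, was at 47.8, 45.3, 44.0 and 61.8 TPM in NMN 1 to 4, against 44.9, 40.1, 53.1 and 57.0 TPM in Vehicle 1 to 4. NMN 4 was the highest and Vehicle 2 the lowest tumor. Between groups SHMT1 differed by a log2 fold change of 0.03 ± 0.14, 95% interval -0.28 to 0.34 (adjusted p = 0.994, limma). The ratio of SHMT2 to SHMT1 within a tumor ran from 1.48 to 1.99 in NMN tumors and from 1.78 to 2.28 in Vehicle tumors, so the mitochondrial transcript was the more abundant in all 8.

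**Figure D2:**
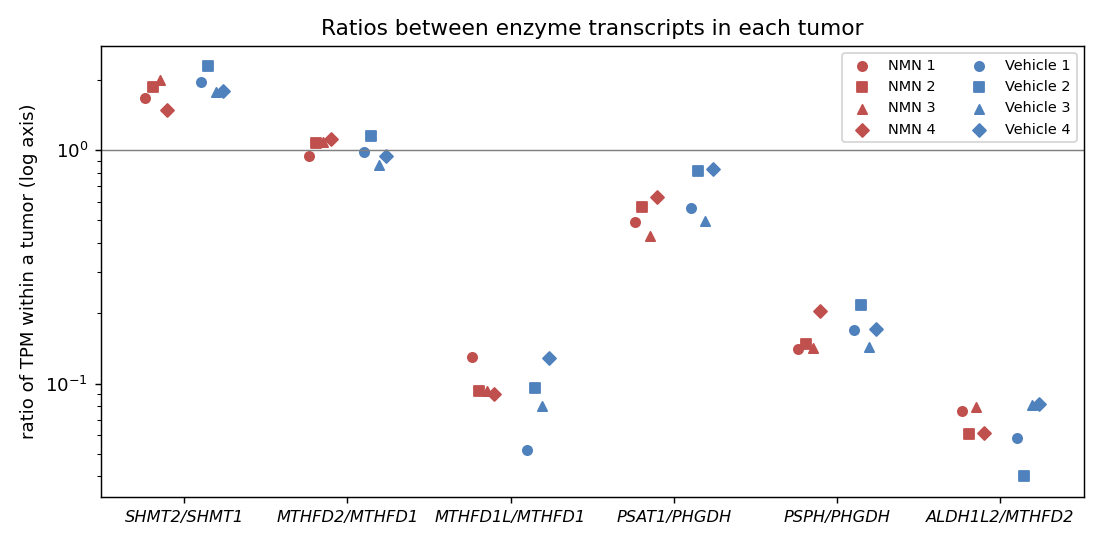
Ratio of TPM between pairs of enzyme transcripts within each tumor (log axis, grey line at 1), NMN tumors in red left of Vehicle tumors in blue. SHMT2 exceeds SHMT1 in all 8 tumors, MTHFD2 and MTHFD1 lie on both sides of 1, and no pair separates the groups.

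Of the folate enzymes further along, MTHFD1 (chromosome 14, 64388031 to 64463457, plus strand) was at 85.0, 73.7, 71.4 and 96.5 TPM in NMN 1 to 4, against 92.2, 67.4, 95.4 and 96.8 TPM in Vehicle 1 to 4. Vehicle 2 lay well under the other 3 Vehicle tumors, and the NMN values fell between the Vehicle extremes. Between groups MTHFD1 differed by a log2 fold change of -0.10 ± 0.14, 95% interval -0.40 to 0.20 (adjusted p = 0.958, limma), and it was -0.22 without Vehicle 2.

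MTHFD2 (chromosome 2, 74198562 to 74217565, plus strand), the NAD(P)+-dependent dehydrogenase and cyclohydrolase of mitochondria, was at 80.4, 79.4, 77.5 and 108 TPM in NMN 1 to 4, against 90.7, 77.7, 82.0 and 91.0 TPM in Vehicle 1 to 4. NMN 4 was the highest of all 8, and the other NMN tumors lay within or just under the Vehicle range. MTHFD2 had a log2 fold change of 0.01 ± 0.12, 95% interval -0.26 to 0.27 (adjusted p = 0.998, limma), and it was -0.11 without NMN 4. The ratio of MTHFD2 to MTHFD1 ran from 0.945 to 1.12 in NMN tumors and from 0.859 to 1.15 in Vehicle tumors.

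MTHFD1L (chromosome 6, 150865549 to 151101887, plus strand), the formate-releasing synthetase of mitochondria, varied most. It was at 11.03, 6.88, 6.65 and 8.67 TPM in NMN 1 to 4, against 4.79, 6.45, 7.61 and 12.4 TPM in Vehicle 1 to 4. Both the lowest and the highest value came from Vehicle tumors, 2.59-fold apart, so the groups overlapped entirely. Its spread over the 8 tumors was above that of 87.9% of tested genes. The log2 fold change was 0.12 ± 0.25, 95% interval -0.42 to 0.67 (adjusted p = 0.971, limma). It was 0.35 without Vehicle 4 and -0.06 without Vehicle 1.

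ALDH1L2 (chromosome 12, 105019784 to 105084577, minus strand), the mitochondrial formyltetrahydrofolate dehydrogenase, was the scarcest. It was at 6.16, 4.84, 6.16 and 6.61 TPM in NMN 1 to 4, against 5.28, 3.11, 6.66 and 7.46 TPM in Vehicle 1 to 4. The NMN values lay inside the Vehicle range, whose ends were Vehicle 2 and Vehicle 4. The log2 fold change was 0.11 ± 0.22, 95% interval -0.37 to 0.59 (adjusted p = 0.970, limma), and it was -0.10 without Vehicle 2. The 4 mitochondrial transcripts summed to 186 ± 19.1 TPM with NMN and 193 ± 14.6 TPM with vehicle, and SHMT1 and MTHFD1 together to 131 ± 19.5 TPM with NMN and 137 ± 20.7 TPM with vehicle.

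**Figure D3:**
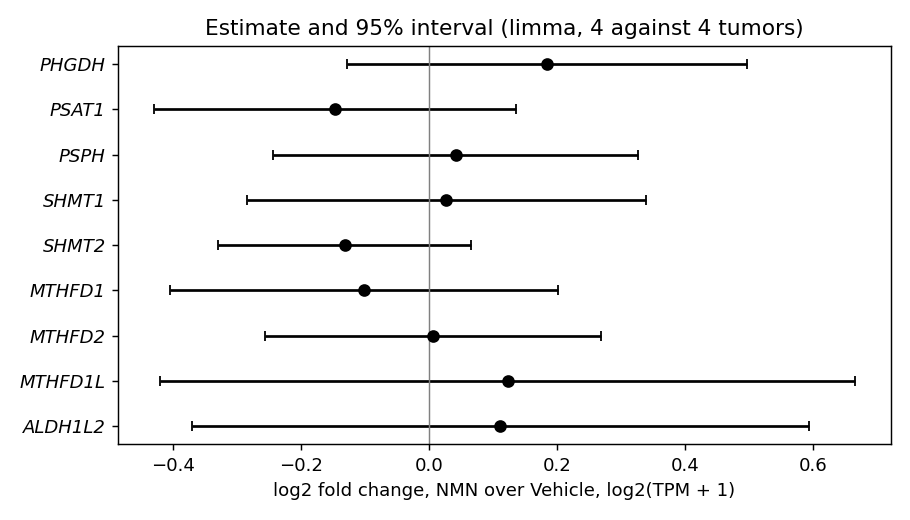
Log2 fold change of each enzyme transcript, NMN over Vehicle on log2(TPM + 1), with its 95% interval from limma (4 tumors against 4). All 9 intervals include 0; the narrowest is that of SHMT2, from -0.33 to 0.07, and the widest that of MTHFD1L, from -0.42 to 0.67.

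In plain folds of TPM + 1, the intervals of the 7 more abundant members lay between 0.742 and 1.41, and those of MTHFD1L and ALDH1L2 reached 1.59 and 1.51. Read depth cannot be recovered from TPM, and no counting interval is given.

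In deposited TPM several members had their extremes in the same tumors. How often each tumor is highest or lowest over all tested genes was not examined, so this is not a trait of the members. Vehicle 4 had the highest value of 5 members and NMN 4 of 3, namely PSPH, SHMT1 and MTHFD2, where it exceeded every Vehicle tumor. Vehicle 2 had the lowest value of 4 members. Over the genes detected in all 8 tumors, the median of the ratio of each gene to its 8-tumor geometric mean was 1.10 in NMN 4, the highest, 0.922 in NMN 2 and 0.921 in Vehicle 2, the lowest, and 0.980 in Vehicle 4. After division by these factors, which is median-of-ratios scaling, NMN 4 had the highest value of PSPH and MTHFD2 only, SHMT1 was highest in Vehicle 4, and Vehicle 4 was highest in 6 members. The lowest scaled value was in NMN 1 for 3 members and in Vehicle 1 and Vehicle 2 for 2 each. The range of PSPH narrowed to 1.31-fold from the 1.54-fold of TPM as deposited, and that of MTHFD2 to 1.28-fold from 1.39-fold. The range widened for PSAT1 to 1.57-fold from 1.52-fold, for SHMT2 to 1.33-fold from 1.29-fold and for MTHFD1L to 2.74-fold from 2.59-fold.

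**Figure D4:**
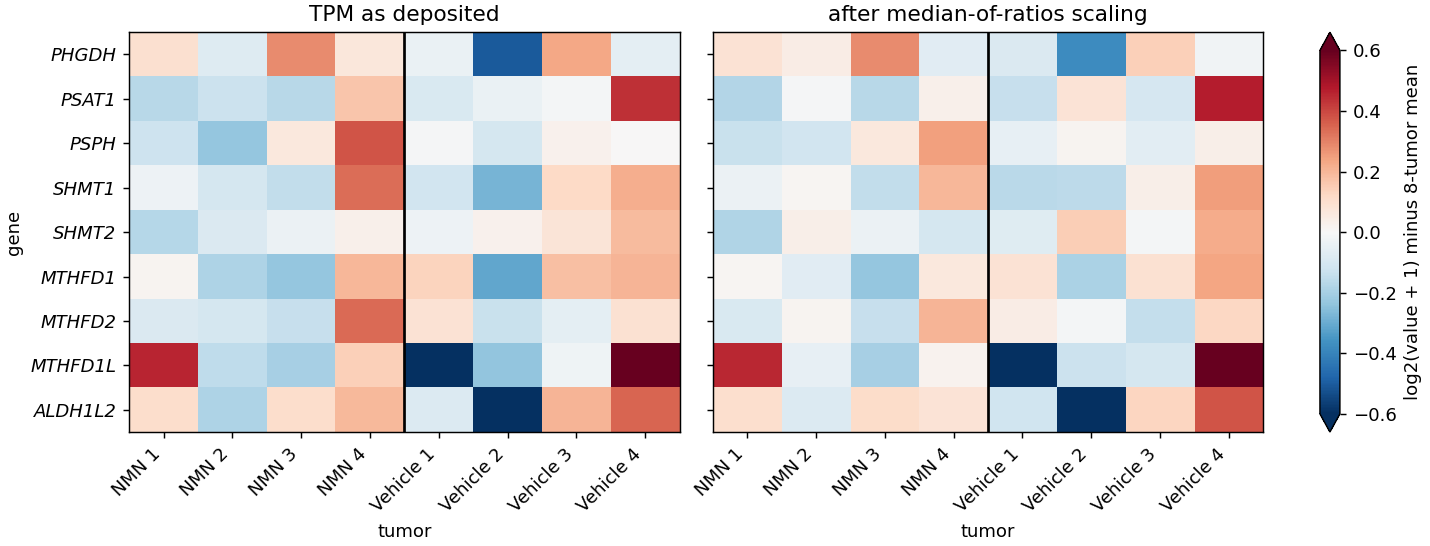
Deviation of each enzyme transcript (rows) in each tumor (columns, NMN left of Vehicle) from its 8-tumor mean of log2(value + 1), in deposited TPM and after median-of-ratios scaling; colors saturate at 0.6 in either direction. The red NMN 4 column fades after scaling, while the red Vehicle 4 column and the blue PHGDH and ALDH1L2 cells of Vehicle 2 remain.

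The NMN group was not uniform in other respects. The summed level of 16 skeletal muscle markers was 57.3, 35.4, 50.4 and 728 TPM in NMN 1 to 4, against 985, 763, 2948 and 496 TPM in Vehicle 1 to 4, with 2 to 4 of these markers at 0 in NMN 1, NMN 2 and NMN 3 and none at 0 elsewhere. A score of 25 hypoxia response genes, the mean deviation from the 8-tumor mean of log2(TPM + 1), was 0.33, 0.68, 0.70 and -0.31 for NMN 1 to 4, and the Vehicle tumors scored between -0.50 and -0.18. By limma 25 of 25 hypoxia genes had higher means with NMN (19 at an unadjusted p under 0.05, 0 after adjustment), and 15 of 15 tested muscle genes had lower means (15 and 0). Over all tested genes 4.79% were higher and 2.15% lower at an unadjusted p under 0.05. Without NMN 4, 8 hypoxia and 13 muscle genes passed, and with library weights 2 and 12, in each case among 54 over all tested genes. For PSAT1 and SHMT2, whose deposited TPM was lower in NMN 1, NMN 2 and NMN 3 than in every Vehicle tumor, the muscle and hypoxia values separate the same tumors, and their part in the levels was not tested; the scaled values of PSAT1 and SHMT2 did not split the tumors in this way. The lists of fibroblast, endothelial, myeloid and adipocyte markers summed to 121 to 237, 6.11 to 8.34, 50.1 to 91.0 and 17.4 to 219 TPM in NMN tumors, against 192 to 292, 4.53 to 7.11, 53.0 to 76.4 and 12.5 to 102 TPM in Vehicle tumors. The fibroblast genes DCN, LUM and THY1, the endothelial gene EMCN and the adipocyte gene ADIPOQ averaged at most 0.0225 TPM in either group. Other genes of these lists were abundant: COL1A1 was at 94.0 TPM with NMN and 140 TPM with vehicle, and FABP4 at 88.3 and 34.0 TPM. All 5 tested fibroblast genes had lower means with NMN, 3 at an unadjusted p under 0.05 (limma, against 2.15% of all tested genes) and 0 after adjustment. Of 2 tested endothelial genes, VWF was lower with NMN and KDR higher (3.94 against 1.83 TPM). KDR did not overlap between the groups, as in 3.05% of tested genes. Breast epithelial markers were abundant in all 8 tumors, at 10675 to 13390 TPM with NMN and 10017 to 18567 TPM with vehicle. Of the 10 genes in this list, NMN tumors averaged above Vehicle tumors in 6 and below them in 4. KRT8, EPCAM and KRT18 were higher with NMN at an unadjusted p under 0.05 (limma, against 4.79% of all tested genes). After adjustment 0 of the 10 passed, and 1 did with library weights. KRT8, at 834 TPM with NMN and 415 TPM with vehicle, did not overlap between the groups. In whole-tumor RNA, fewer cells of a type and less RNA per cell cannot be told apart. Muscle, fibroblast, endothelial, myeloid and adipocyte cells of these tumors would be of the mouse host, while the genes listed are human. The labels say nothing of mouse reads. Whether these marker values come from reads of host cells or from the human tumor cells therefore cannot be told, and they are not amounts of a cell type.

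Around the 9 enzymes, 1 gene of the folate lists did not overlap between the groups, FOLR1, the folate receptor alpha at the cell surface (chromosome 11, 72189558 to 72196323, plus strand). Over all tested genes 3.05% did not overlap. It was at 72.0, 61.2, 87.9 and 52.9 TPM in NMN 1 to 4, against 34.5, 26.8, 28.4 and 10.3 TPM in Vehicle 1 to 4, so all 4 NMN tumors, NMN 4 included, lay above all 4 Vehicle tumors. FOLR1 had a log2 fold change of 1.51 ± 0.30, 95% interval 0.85 to 2.18, and it did not pass the adjustment over all genes (adjusted p = 0.221, limma; exact permutation p = 0.0286, the smallest the design allows). Its estimate ran from 1.15 without Vehicle 4 to 1.70 without Vehicle 1. With library weights it passed (adjusted p = 0.0460, against 0.0732 to 0.757 over the other alternatives). The rule that names up to 3 genes of each list by unadjusted p brought it up.

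Of the 6 genes of folate uptake and retention tested, FOLR1 included, means were higher with NMN in 3 and lower in 3, and the list's median was -0.04; FOLR2 was not analysed here. The polyglutamate synthase gene FPGS was at 23.7 TPM with NMN and 28.7 TPM with vehicle, and the mitochondrial folate carrier gene SLC25A32 at 17.4 TPM with NMN and 15.7 TPM with vehicle. The reduced folate carrier gene SLC19A1 was at 4.72 TPM with NMN and 5.18 TPM with vehicle. Of 8 tested further enzymes of the folate cycle, 2 had the higher and 6 the lower mean (median -0.10). TYMS, the thymidylate synthase gene, had a log2 fold change of 0.03 ± 0.11, and MTHFD2L, the close relative of MTHFD2, one of 0.00 ± 0.15.

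Of 4 glycine cleavage genes 3 had the higher mean, with a median of 0.24, led by the decarboxylase gene GLDC (log2 fold change 0.47 ± 0.34) and the aminomethyltransferase gene AMT (0.42 ± 0.25). That median was 0.048 with a filter at 5 TPM and 0.12 without Vehicle 4. Of 14 genes of serine transport and use 4 had the higher and 10 the lower mean (median -0.08). The neutral amino acid transporter gene SLC1A5 was at 165 TPM with NMN and 190.4 TPM with vehicle, and the mitochondrial serine carrier gene SFXN1 at 48.2 TPM with NMN and 53.8 TPM with vehicle. Of 9 genes of the methionine cycle list, which holds AHCY and its relatives AHCYL1 and AHCYL2, 1 had the higher mean. It was AHCYL1, with a log2 fold change of 0.24 ± 0.13. Of 10 purine synthesis genes 2 had the higher mean, and the medians of these lists were -0.10 and -0.07. At an unadjusted p under 0.05 stood 0 genes of each of these lists apart from FOLR1 of the uptake list, and 0 genes of any passed the adjusted test in either direction.

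The steps of glycolysis on either side of 3-phosphoglycerate, the substrate of PHGDH, had higher means in NMN tumors in 7 of 7 genes, around a median of 0.32 on the log2 scale. Of these, 4 stood at an unadjusted p under 0.05, against 4.79% of all tested genes in that direction, and 0 passed the adjusted test. GAPDH was at 10319, 11747, 10574 and 7212 TPM in NMN 1 to 4, against 7270, 7799, 7415 and 6831 TPM in Vehicle 1 to 4, so NMN 4 lay within the Vehicle range. PGK1, which forms 3-phosphoglycerate, was at 216 ± 27.5 TPM with NMN and 173 ± 19.4 TPM with vehicle (log2 fold change 0.32 ± 0.12, adjusted p = 0.553, limma). ENO1, an enolase further down, was the 1 gene of the 7 that did not overlap between the groups, against 3.05% of all tested genes. It was at 1425 ± 99.3 TPM with NMN and 1133 ± 92.1 TPM with vehicle (log2 fold change 0.33 ± 0.10, adjusted p = 0.365, limma). Without NMN 4, 1 of the 7 genes passed, among 54 over all tested genes.

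ATF4 induces PHGDH, PSAT1, SHMT2 and MTHFD2 when amino acids are short, as is known from other systems. ATF4 itself was at 360.3 TPM with NMN and 373 TPM with vehicle, with a log2 fold change of -0.05 ± 0.11, which says nothing of its protein. Of 17 genes in the list of ATF4 and its other targets 6 had the higher and 11 the lower mean (median -0.05). At an unadjusted p under 0.05 (limma) stood 1 of the 17, VLDLR, against 6.94% of all tested genes. VLDLR, a lipoprotein receptor gene, was at 8.64, 14.4, 14.2 and 5.89 TPM in NMN 1 to 4, against 5.83, 5.20, 6.22 and 4.04 TPM in Vehicle 1 to 4. NMN 4 thus lay within the Vehicle range. The asparagine synthetase gene ASNS had a log2 fold change of -0.16 ± 0.15, and the cystine transporter gene SLC7A11 one of -0.41 ± 0.21. Vehicle 4 had the highest score of the ATF4 list, 0.14, and the highest PSAT1, SHMT2, MTHFD1, MTHFD1L and ALDH1L2. Its score over the 9 members, 0.23, was also the highest. Elsewhere the pair of scores (ATF4 list, then members) did not always share a sign. Signs differed in NMN 3 (0.09, -0.05) and Vehicle 3 (-0.06, 0.08). They were shared in NMN 1 (0.01, 0.01), NMN 2 (-0.11, -0.14) and NMN 4 (0.02, 0.21). Vehicle 1 (-0.09, -0.08) and Vehicle 2 (-0.01, -0.25) had both scores negative. Whether these scores go together was not tested.

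**Figure D5:**
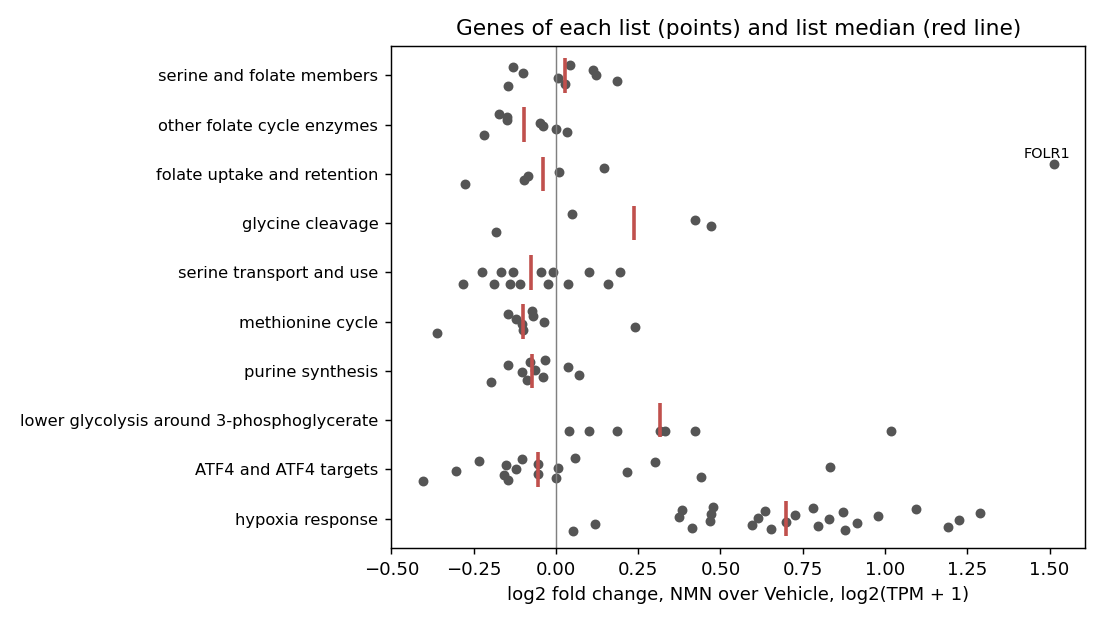
Log2 fold change, NMN over Vehicle on log2(TPM + 1), of every tested gene (points) in the serine and folate enzymes and 9 related lists, with the list median as a red line. The serine and folate enzymes sit within 0.2 of 0 around a median of 0.03, FOLR1 stands alone at 1.51, and the hypoxia genes lie to the right of 0 with a median of 0.70.

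By root mean square difference of log2(TPM + 1) centred on the 8-tumor mean, the 3 members with the widest spread were matched to other genes with a mean of at least 5 TPM. Nearest to PHGDH were ATXN7L2 (0.05), MFSD14A (0.06) and AHCYL1 (0.07), the last of them a gene of the methionine cycle list. Nearest to ALDH1L2 were PNMA1, ZNF71 and SCARA3 (0.09, 0.09 and 0.10), and nearest to MTHFD1L were LHX2, GNA12 and MYO5A (0.17, 0.18 and 0.18). With 8 tumors and 10797 candidate genes, close matches are a description of these libraries.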

How the data were processed

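RNA-seq of 4 NMN and 4 Vehicle tumors was analysed from 1 table of TPM per gene, the unit given per the file headers, as deposited by the authors. Per the submitters' processing notes, HISAT2 2.1.0, Bowtie2 2.2.5, RSEM 1.2.8 and GRCh38.p13 were used, with no roles given. The labels say nothing of mouse reads. Each library sums to about 1000000, with 16451 to 16662 genes above 0, and read depth is unknown.

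Genes with at least 1 TPM in at least 4 libraries (13358) were fitted with limma 3.58.1 (R 4.3.3) with a variance trend on log2(TPM + 1), group as the only term, two-sided, with Benjamini-Hochberg adjustment. Single members were also compared by an exact permutation test over all 70 splits. The model was also run on simulated data with independent noise for each gene and no effect shared within a tumor. The changes put in were larger than those estimated for the members, so that run does not bear on differences as small as theirs. Samples were grouped by title. Pseudocounts, filters, scalings, fit options, the replicate block and each library left out were tried as alternatives. Medians and counts describe lists, with no set test. Positions are from GENCODE 29 and promoters from RefSeq (GRCh38.p14).

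The members and lists were chosen with earlier results of these data known. All 9 members are named, then up to 3 genes of each related list by unadjusted p and any needed to describe a list, and the nearest genes of the 3 most variable members.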

Additional observations from a re-analysis of the deposited data

Results flagged for a closer look

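A tumor was called far by the share of its group's range taken up by the gap to the other 3. The limit was the 95% critical value of Dixon's test. For independent normal values chance gives about 1 in 20, but the groups examined here share tumors and genes, so that share is no yardstick for them. Far tumors were found in 11 of 114 groups of 4 values examined. Among the members these were PSAT1 in NMN 4, at 219 TPM against 174 to 179 TPM in the other NMN tumors, and in Vehicle 4, at 265 TPM against 183 to 194 TPM in the other Vehicle tumors. MTHFD2 was at 108 TPM in NMN 4 against 77.5 to 80.4 TPM in the other NMN tumors, and MTHFD1 at 67.4 TPM in Vehicle 2 against 92.2 to 96.8 TPM in the other Vehicle tumors. After median-of-ratios scaling none of these 4 gaps exceeded that limit, and ALDH1L2 in NMN 2 did, with a gap of 0.839 of the range.

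The log2 ratio of MTHFD1L to MTHFD1 was -2.95 in NMN 1, against -3.48 to -3.42 in the other NMN tumors, and that of PSPH to PHGDH was -2.28 in NMN 4, against -2.83 to -2.76. The score of serine transport and use was -0.14 in NMN 2, against -0.00 to 0.02 in the other NMN tumors. The skeletal muscle score was 1.07 in NMN 4, against -2.64 to -2.45, and the myeloid score -0.12 in Vehicle 1, against 0.10 to 0.13 in the other Vehicle tumors. AHCYL2, a relative of AHCY placed in the methionine cycle list, was at 42.1 TPM in NMN 4 against 20.5 to 22.7 TPM, and PAICS, of purine synthesis, at 166 TPM in Vehicle 4 against 134 to 136 TPM.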

How the results depend on the processing

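No member passed under any of the 19 alternatives, and PHGDH, PSAT1, SHMT2 and MTHFD1 kept their direction in all of them. The smallest adjusted p of a member was 0.524, for SHMT2. The log2 fold change of MTHFD2 was -0.0051 after median-of-ratios scaling, -0.021 with the MTRNR2L genes removed and -0.050 with library weights, which also gave -0.025 for PSPH and 0.36 for MTHFD1L, against 0.12 in the reported fit. With 1 tumor left out, estimates ran from -0.078 to 0.13 for PSPH, from -0.080 to 0.10 for SHMT1, from -0.11 to 0.053 for MTHFD2, from -0.056 to 0.35 for MTHFD1L and from -0.10 to 0.25 for ALDH1L2. The median over the members ran from -0.08 without NMN 4 to 0.07 without NMN 2. Over all genes the calls numbered 54 with library weights and from 0 to 54 with 1 tumor left out, the most without NMN 4 and 1 without Vehicle 3. Of genes at an unadjusted p under 0.05, 640 were higher and 287 lower in NMN tumors (69.0% higher), with 55.5% higher after quantile normalization and 58.9% without the MTRNR2L genes, 57.5% with library weights and, with 1 tumor left out, from 48.9% without NMN 4 to 79.1% without NMN 2. The replicate numbers are shared by the groups. Over all tested genes, deviations of same-numbered tumors correlated only between -0.12 and 0.03, so the numbers are not taken to pair them. Single members can differ from this: within its group PHGDH was lowest in NMN 2 and in Vehicle 2, and highest in NMN 3 and in Vehicle 3. A fit with the replicate block called 2 genes, none of them a member. With it the SE of PHGDH was 0.094, against 0.14 in the reported fit, and that of PSAT1 0.084, against 0.13. The SE of MTHFD1L hardly moved (0.24 against 0.25). The causes of these differences were not tested.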
